A study of Mus musculus with 6 samples.

Results

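The cell cycle and proliferation genes described here are 40 genes listed by symbol, from the DNA replication machinery to the mitotic spindle. All 40 were found among the 56748 genes of the count table, each as 1 protein-coding gene, and all 40 were among the 16377 genes that passed the low-count filter. The tested mice lacked soluble ST2 (sST2-KO), the secreted form of the interleukin-33 receptor encoded by Il1rl1, and were compared with wild-type littermates (WT). Every mouse of both groups also lacked apolipoprotein E (Apoe -/-), was 6 months old and had received angiotensin II from an osmotic minipump for 28 days, a treatment used to induce aortic disease. Each group had 3 aortas, each profiled by bulk RNA sequencing of poly-T-selected RNA, and no untreated group is analysed here. Neither the way soluble ST2 was removed nor whether tissue around the vessel was kept is given in the sources used here. The comparison asks what removal of soluble ST2 does to gene expression in the diseased aorta.

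A dividing cell copies its DNA in S phase and separates the copies in mitosis. Origins of replication are licensed by loading the MCM helicase, and entry into S phase is driven by cyclin E and E2F transcription factors. Later genes, needed for chromosome condensation, spindle assembly and cytokinesis, are transcribed in G2 and mitosis under FOXM1, MYBL2 and the MuvB complex, and many of their products are destroyed at the end of mitosis. Most cells of an adult artery are not dividing, whereas smooth muscle cells, fibroblasts, endothelial cells and macrophages can divide in an injured wall. In whole aortas the RNA of such genes is a sum over all cells, so fewer dividing cells and less of the RNA per dividing cell cannot be told apart.

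Total counts were 15615658 to 17988552 per library, and a gene without a count could have up to 0.148 to 0.239 CPM (counts relative to library size, scaled by TMM; from 3 counts). Il1rl1 had 2.39, 2.82 and 4.86 CPM in sST2-KO and 2.81, 9.49 and 4.35 CPM in WT, with overlap, and since a gene count joins the soluble and membrane forms it checks no label. Smooth muscle markers other than Tagln were abundant in every aorta. Myh11 had 1235 to 2296 CPM in sST2-KO and 797 to 2529 CPM in WT. Tagln had 11.5 to 30.6 CPM in sST2-KO and 11.3 to 28.3 CPM in WT. A pair of libraries stood apart by markers of other tissues. In sST2-KO replicate 2 the 7 airway epithelium markers summed to 30466 CPM, against 1.71 to 30.1 CPM in the other libraries, and in WT replicate 3 the 6 hepatocyte markers summed to 8142 CPM, against 0.717 to 5.42 CPM in the other libraries. Values without one of these libraries are given beside many results, and the plot of changes shows all 40 members without WT replicate 3.

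No member passed the test between the groups. The edgeR quasi-likelihood test called 0 of 40 members (adjusted p = 0.401 to 0.982), as it called 0% of all tested genes, and 4 members had an unadjusted p under 0.05. DESeq2 also called 0 members, where it called 1.12% of tested genes lower and 0.384% higher in sST2-KO. Means lay mostly below those of WT: 36 of 40 members had a negative log2 change, which was so for 46.5% of all genes tested, and the median over the members was -0.58, against 0.042 over all genes tested. The median was -0.38 without sST2-KO replicate 3. Without WT replicate 3 it was -0.15, and 23 of 40 log2 changes were negative.

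The sum over all 40 members was 373, 368 and 294 CPM in sST2-KO replicates 1 to 3, and 399, 366 and 674 CPM in WT replicates 1 to 3. The sums averaged 345 ± 44.1 CPM in sST2-KO and 480 ± 169 CPM in WT (SD, n = 3 each), and the groups overlapped. The WT libraries other than replicate 3 had sums near those of sST2-KO replicates 1 and 2. sST2-KO replicate 3 had the lowest level of 25 of 40 members, or 62.5%, against 21.6% of all genes tested. WT replicate 3 had the highest level of 34 members, or 85%, whereas it was the highest library for 8.78% of all genes tested, and WT replicate 2 had the lowest level of 9 members (22.5%), against 28.1% of all genes tested. The heat map of members by library shows these columns.

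**Figure D1:**
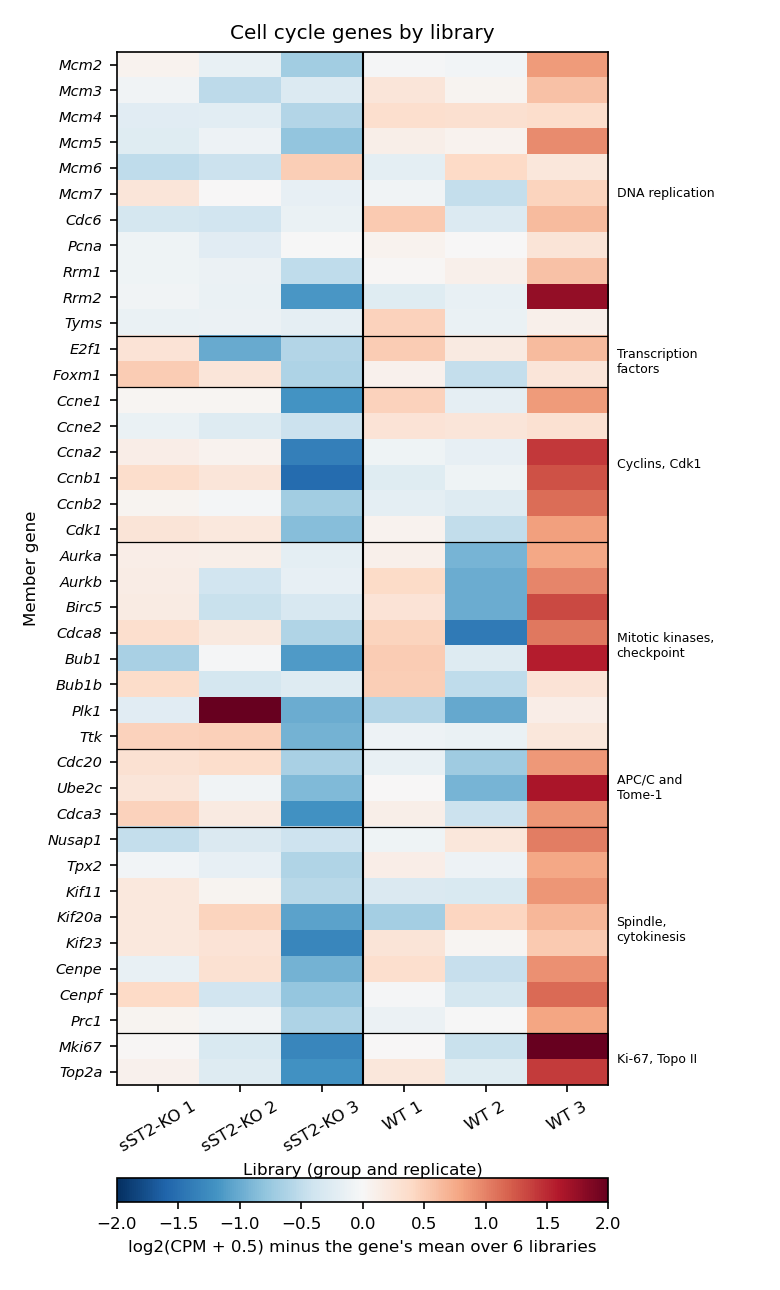
Each row is 1 of the 40 member genes, each column 1 library (sST2-KO replicates 1 to 3 left of the line, WT replicates 1 to 3 right of it), and the colour is log2(CPM + 0.5) minus the gene's mean over the 6 libraries, with colours ending at the scale's limits. sST2-KO replicate 3 is the lowest library in 25 rows, WT replicate 3 the highest in 34, and Plk1 stands out in sST2-KO replicate 2.

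Mki67, which encodes the proliferation antigen Ki-67 that coats mitotic chromosomes (ENSMUSG00000031004, chromosome 7, 135291513 to 135318090, mm39), had 18.6, 14.9 and 7.18 CPM in sST2-KO replicates 1 to 3, and 18.5, 13.4 and 76.0 CPM in WT replicates 1 to 3. The groups overlapped, and WT replicate 3, from 1275 counts, was 4.76 times the mean of the other WT libraries. The group means were 13.6 ± 5.84 CPM in sST2-KO and 36.0 ± 34.8 CPM in WT (SD, n = 3 each). Its log2 change of -1.41 (SE 0.70) did not pass (edgeR adjusted p = 0.488) and was -0.24 without WT replicate 3. Top2a, the DNA topoisomerase that untangles replicated chromosomes (ENSMUSG00000020914, chromosome 11, 98883769 to 98915015, mm39), had 15.3, 12.0 and 5.92 CPM in sST2-KO and 17.0, 12.1 and 38.8 CPM in WT. Its libraries lay in the same order as those of Mki67 in sST2-KO, with WT replicate 3 again the highest. The log2 change was -1.03 (SE 0.52, edgeR adjusted p = 0.491), or -0.40 without WT replicate 3.

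**Figure D2:**
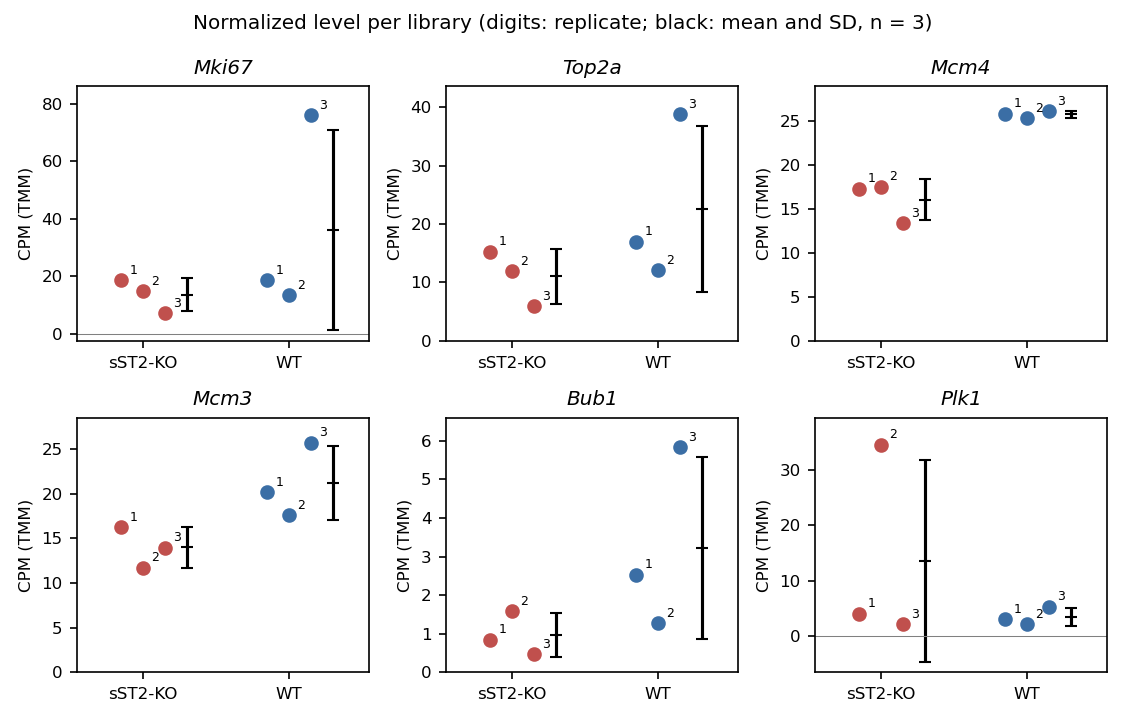
Normalized level in CPM (vertical axis, linear) of 6 named members in the 3 sST2-KO libraries (red, left) and the 3 WT libraries (blue, right); digits give the replicate, and black bars the mean and SD. Mki67, Top2a and Bub1 have their highest value in WT replicate 3 and Plk1 in sST2-KO replicate 2, whereas the groups do not overlap for Mcm4 and Mcm3.

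Of the 11 members of DNA replication, 10 lay below 0 on the log2 scale, and their median log2 change of -0.57 was -0.29 without WT replicate 3. In 5 of the 11, and in 7 of all 40 members (17.5%), every sST2-KO library lay below every WT library. The share of all tested genes lower in sST2-KO with no overlap was 10%, and 9.09% were higher with no overlap, which held for 0 members. The 7 were Mcm3, Mcm4, Mcm5, Pcna, Rrm1, Ccne2 and Nusap1. Summed over the 11 replication members, the level was 208, 196 and 215 CPM in sST2-KO replicates 1 to 3 and 239, 247 and 329 CPM in WT replicates 1 to 3. These sums did not overlap, but the split into replication and mitotic members was made after seeing the data. Mcm6 and Pcna weighed most in the sums, with means of 49.7 and 42.4 CPM in sST2-KO. Mcm6, whose groups overlapped, gave 73.8 CPM of the sum in sST2-KO replicate 3.

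Mcm4, a subunit of the MCM helicase that unwinds DNA at the fork (ENSMUSG00000022673, chromosome 16, 15441761 to 15455264, mm39), had 17.3, 17.6 and 13.4 CPM in sST2-KO and 25.9, 25.4 and 26.2 CPM in WT. All 3 sST2-KO libraries lay below all 3 WT libraries, and the WT libraries lay close together. The means were 16.1 ± 2.36 CPM in sST2-KO and 25.8 ± 0.416 CPM in WT (SD, n = 3 each), and the log2 change of -0.68 (SE 0.19) had the lowest p of the members (edgeR unadjusted p = 0.00796, adjusted p = 0.401). It was -0.75 to -0.56 with any 1 library left out, and -0.67 without WT replicate 3. Mcm3, another subunit, had 16.2, 11.7 and 14.0 CPM in sST2-KO and 20.2, 17.6 and 25.7 CPM in WT. Here too the groups did not overlap, and the log2 change was -0.60 (SE 0.23, edgeR adjusted p = 0.443). Mcm5 had 8.98, 10.04 and 5.99 CPM in sST2-KO and 11.7, 11.3 and 21.2 CPM in WT, again without overlap, and WT replicate 3 stood above the other WT libraries. Its log2 change was -0.82 (SE 0.35), or -0.46 without WT replicate 3.

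The other MCM subunits overlapped between the groups. Mcm2 had 11.8, 10.1 and 6.72 CPM in sST2-KO and 11.1, 10.8 and 20.8 CPM in WT, and its log2 change of -0.57 (SE 0.36) was -0.19 without WT replicate 3. Mcm6 had 36.4, 38.8 and 73.8 CPM in sST2-KO and 45.5, 69.0 and 61.4 CPM in WT, and was the only one of the 40 members with its highest level in sST2-KO replicate 3. Mcm7 had 28.3, 24.0 and 21.2 CPM in sST2-KO and 22.7, 17.0 and 32.6 CPM in WT, a log2 change of 0.022. The 6 MCM genes, whose products form the helicase together, had log2 changes of -0.82 to 0.022.

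Pcna, the sliding clamp that holds DNA polymerase on its template, had the highest level per kilobase of the members, 17.7 CPM per kb in sST2-KO and 20.7 CPM per kb in WT. It had 43.0, 38.9 and 45.4 CPM in sST2-KO and 48.2, 46.3 and 54.7 CPM in WT, with no overlap but a small log2 change of -0.23 (SE 0.15, edgeR adjusted p = 0.556). Rrm1 and Rrm2 encode the large and small subunits of ribonucleotide reductase, which makes deoxyribonucleotides. Rrm1 had 28.9, 28.3 and 21.6 CPM in sST2-KO and 31.3, 33.0 and 46.2 CPM in WT. Rrm2 had 6.70, 6.43 and 2.86 CPM in sST2-KO and 5.90, 6.30 and 25.2 CPM in WT, with a log2 change of -1.22 (SE 0.66) that was -0.19 without WT replicate 3. The small subunit, whose RNA is tied to S phase, was 4.13 times higher in WT replicate 3 than in the mean of the other WT libraries, and the large subunit 1.44 times. Tyms, which makes thymidylate, had 7.10, 7.22 and 6.85 CPM in sST2-KO and 11.0, 7.10 and 8.41 CPM in WT. Cdc6, which loads the MCM helicase at origins, had 2.84, 2.77 and 3.39 CPM in sST2-KO and 5.68, 3.03 and 6.14 CPM in WT. Both overlapped between the groups, Cdc6 from 38 to 103 counts per library.

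The G1/S regulators had means of 1.70 to 5.27 CPM in sST2-KO and 3.09 to 9.51 CPM in WT. E2f1, a transcription factor of S phase genes, had 8.29, 3.12 and 4.39 CPM in sST2-KO and 9.93, 7.81 and 10.8 CPM in WT, with a log2 difference of -0.85 (SE 0.41, edgeR adjusted p = 0.484). Only sST2-KO replicate 1 reached the WT range. Ccne2, a cyclin E that activates CDK2, had 3.69, 3.36 and 2.93 CPM in sST2-KO and 5.07, 4.94 and 5.19 CPM in WT. These groups did not overlap, with means of 3.33 ± 0.384 CPM in sST2-KO and 5.07 ± 0.123 CPM in WT (SD, n = 3 each), yet the log2 change of -0.61 (SE 0.30) did not pass (edgeR adjusted p = 0.485), and it was -0.59 without WT replicate 3. Ccne1, the other cyclin E, had 2.22, 2.23 and 0.665 CPM in sST2-KO and 3.14, 1.83 and 4.29 CPM in WT, with overlap (log2 change -0.85, SE 0.58).

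The 26 mitotic members are the kinase, degradation, spindle and chromatin genes with Ccna2, Ccnb1, Ccnb2, Cdk1 and Foxm1. Their sum was 152, 163 and 71.3 CPM in sST2-KO replicates 1 to 3 and 142, 105 and 326 CPM in WT replicates 1 to 3, so the groups overlapped. Of the 26, 23 lay below 0 on the log2 scale. Their median log2 change was -0.51, and it was 0.042 without WT replicate 3. sST2-KO replicate 3 stood at a median of 0.463 times the mean of the other sST2-KO libraries over the mitotic members and 0.809 times over the replication members. Over the same members WT replicate 2 stood at a median of 0.475 and 0.732 times the mean of the other WT libraries. That mean includes WT replicate 3, which was high for these members. Mitotic members deviated from their own mean log2 CPM by a median of -0.91 for sST2-KO replicate 3, against -0.42 for WT replicate 2. Replication members did so by -0.28 and 0.015, in the same order, so WT replicate 2 was less low by this measure. Relative to the mean of the other WT libraries, WT replicate 3 was higher by a median of 2.39 times over the mitotic members, and by 1.41 times over the replication members. It exceeded 1.5 times for 22 of the 26, a level reached by 9.6% of all genes tested.

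Foxm1, which encodes a transcription factor of mitotic genes, had 7.90, 6.48 and 3.33 CPM in sST2-KO and 5.79, 3.75 and 6.50 CPM in WT, with sST2-KO replicate 1 the highest and sST2-KO replicate 3 the lowest. Its log2 change was 0.14 (SE 0.42, edgeR adjusted p = 0.901). The mitotic cyclins bind CDK1, the kinase that drives mitosis. Ccnb2, a cyclin B, had the highest level per kilobase of the cyclins and Cdk1, at 2.42 CPM per kb in sST2-KO and 3.72 CPM per kb in WT. It had 4.49, 4.16 and 2.46 CPM in sST2-KO and 3.69, 3.51 and 9.90 CPM in WT, a log2 change of -0.62 (SE 0.51) that was 0.042 without WT replicate 3. Ccnb1, another cyclin B, ran from 0.931 CPM in sST2-KO replicate 3 to 9.60 CPM in WT replicate 3, and its log2 change of -0.66 (SE 0.71) was 0.074 without WT replicate 3. Ccna2, cyclin A, had 7.90, 7.57 and 2.46 CPM in sST2-KO and 6.67, 6.30 and 19.9 CPM in WT, a log2 change of -0.87 (SE 0.62), or -0.12 without that library. Cdk1 had 7.33, 7.08 and 3.13 CPM in sST2-KO and 6.40, 4.15 and 11.0 CPM in WT, a log2 change of -0.30 (SE 0.49), or 0.14 without it. In all 6 genes of the cyclin and Cdk1 list sST2-KO replicate 3 was the lowest library and WT replicate 3 the highest.

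Of the 8 mitotic kinase and checkpoint members, 6 were lowest in WT replicate 2. Bub1, a checkpoint kinase at the kinetochore, had the most negative log2 change of the members, -1.72 (SE 0.71, edgeR unadjusted p = 0.0463, adjusted p = 0.451). It had 0.852, 1.58 and 0.466 CPM in sST2-KO and 2.54, 1.28 and 5.84 CPM in WT, from 7 to 98 counts, and the groups overlapped. Without WT replicate 3 its log2 change was -0.98. Aurka, the Aurora kinase of spindle poles, had a log2 change of -0.14. Aurkb, Birc5 (survivin) and Cdca8 (borealin), of the chromosomal passenger complex, had log2 changes of -0.73 to -0.35, and Incenp, the complex's scaffold, which is no member, of -0.27. Birc5 had 5.06, 3.12 and 3.46 CPM in sST2-KO and 5.46, 1.99 and 11.9 CPM in WT, so the lowest and the highest libraries were both WT, and its log2 change was 0.045 without WT replicate 3. Cdca8 ran from 0.957 CPM in WT replicate 2 to 7.57 CPM in WT replicate 3. Bub1b, which encodes the checkpoint protein BUBR1, had a log2 change of -0.21, and Ttk, the checkpoint kinase MPS1, of 0.19 from 5 to 35 counts.

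Plk1, a kinase of mitotic entry and spindle assembly (ENSMUSG00000030867, chromosome 7, 121758662 to 121769096, mm39), had 4.09, 34.5 and 2.20 CPM in sST2-KO replicates 1 to 3 and 3.09, 2.15 and 5.37 CPM in WT replicates 1 to 3. The value of sST2-KO replicate 2, from 697 counts, was 11.0 times the mean of the other sST2-KO libraries, and it is the library with airway epithelium markers. The log2 change of 1.94 (SE 1.02, edgeR adjusted p = 0.50) was -0.17 without that library. A pair of other mitotic genes, chosen after their values were seen, had the same high library. Nek2, a centrosome kinase, had 1.70, 56.0 and 1.80 CPM in sST2-KO and 2.43, 2.23 and 4.89 CPM in WT, and Melk, another kinase of dividing cells, had 2.84, 14.2 and 0.532 CPM in sST2-KO and 1.16, 0.638 and 2.74 CPM in WT. In that library Mki67 and Top2a, at 14.9 and 12.0 CPM, lay between the other sST2-KO libraries. Without that library the log2 change was -0.86 for Nek2, against 2.64 with it, and 0.15 for Melk, against 1.95 with it. The part of the airway transcripts in these values was not tested.

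The 3 members of mitotic protein destruction overlapped between the groups. Cdc20, which activates the anaphase promoting complex (APC/C), had 6.19, 6.38 and 2.93 CPM in sST2-KO and 4.36, 2.79 and 9.30 CPM in WT, a log2 change of -0.086 (SE 0.54). Ube2c, the ubiquitin-conjugating enzyme of that complex, had 5.79, 4.55 and 2.40 CPM in sST2-KO and 4.85, 2.31 and 16.1 CPM in WT. Its log2 change of -0.87 (SE 0.72, edgeR adjusted p = 0.630) was 0.24 without WT replicate 3, which was 4.49 times the mean of the other WT libraries. Cdca3, which triggers destruction of the kinase WEE1, had 5.79, 4.65 and 1.46 CPM in sST2-KO and 4.47, 2.87 and 7.87 CPM in WT. Without WT replicate 3 the log2 change of Cdc20 was 0.53 and that of Cdca3 0.11, against -0.35 for Cdca3 with it. WT replicate 3 was the highest library for all 3 genes.

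The 8 spindle, kinetochore and cytokinesis members all had negative log2 changes, -0.92 to -0.29, and 0 passed (edgeR adjusted p = 0.445 to 0.863). Nusap1, a microtubule-binding protein of the spindle, was the one whose groups did not overlap: it had 4.83, 5.59 and 5.06 CPM in sST2-KO and 6.45, 8.21 and 14.6 CPM in WT. Its means were 5.16 ± 0.391 CPM in sST2-KO and 9.76 ± 4.29 CPM in WT (SD, n = 3 each), and the log2 change of -0.92 (SE 0.37) was -0.50 without WT replicate 3. Tpx2, which activates Aurora A on the spindle, had 6.02, 5.54 and 3.93 CPM in sST2-KO and 6.89, 5.82 and 11.1 CPM in WT, with a log2 change of -0.62 (SE 0.36) that was -0.30 without WT replicate 3. The kinesin motors Kif11, Kif20a and Kif23, and Prc1, which bundles microtubules of the central spindle, had log2 changes of -0.50 to -0.29. The kinetochore genes Cenpe and Cenpf were at -0.65 and -0.66, with Cenpf at 4.09, 2.18 and 1.53 CPM in sST2-KO and 2.92, 2.23 and 7.16 CPM in WT and a log2 change of 0.011 without WT replicate 3. Of the 8, 7 were lowest in sST2-KO replicate 3 and all 8 highest in WT replicate 3.

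The 4 members with an unadjusted p under 0.05 were Mcm3, Mcm4, Bub1 and Nusap1, all lower in sST2-KO, which is 10% of the members. In all tested genes 5.95% were lower and 5.08% higher in sST2-KO at that level. This count was 2 lower and 1 higher without sST2-KO replicate 3, where 3.57% of all genes tested were lower. It was 2, 9 and 1 lower without WT replicates 1, 2 and 3, against 4.32%, 5.85% and 3.64% of all genes. DESeq2 gave 7 lower and 1 higher (3.57% of all genes lower), and limma-voom with quality weights 13 lower (9.29% of all genes). The plot of changes with and without WT replicate 3 shows which members depend on that library.

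**Figure D3:**
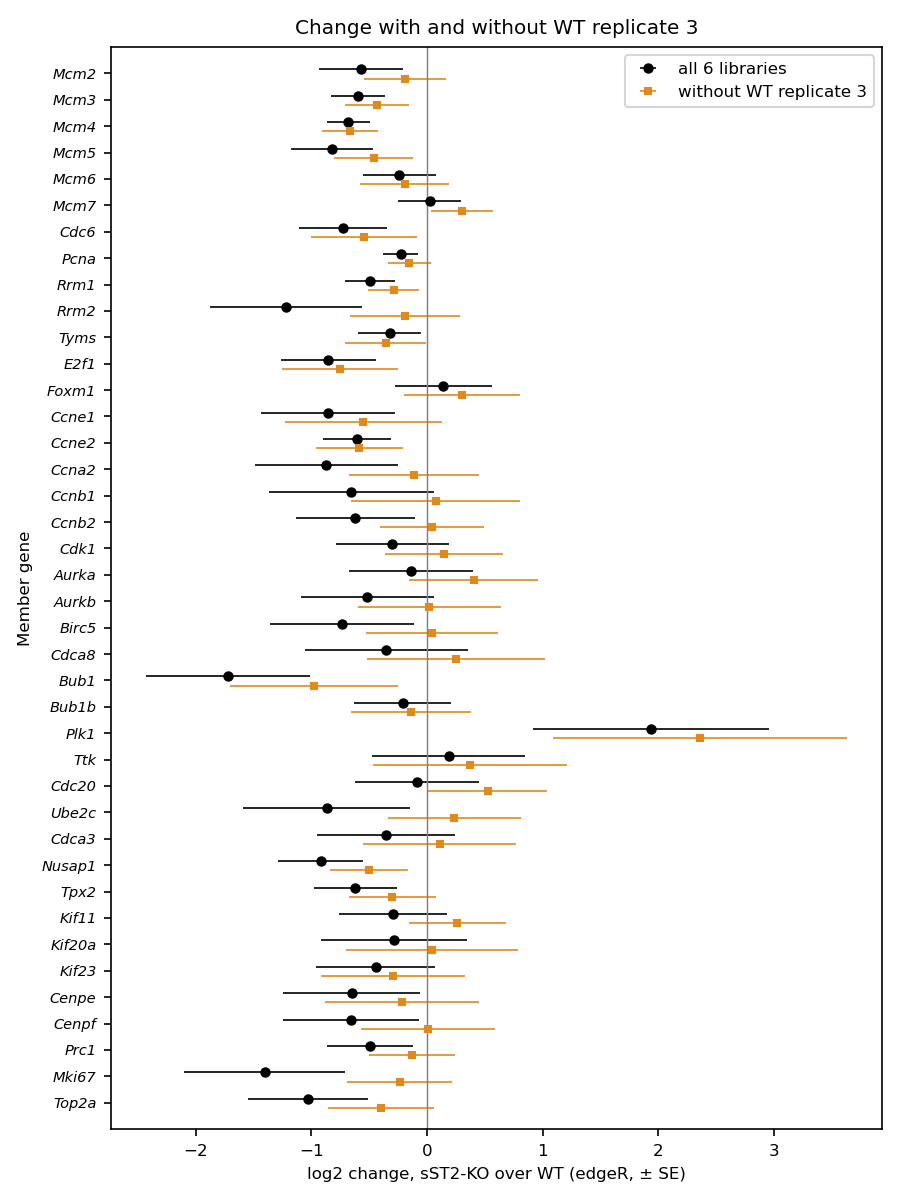
Log2 change of sST2-KO over WT with its SE (horizontal axis) for each of the 40 members (vertical axis), from all 6 libraries (black) and without WT replicate 3 (orange). With all libraries 36 points lie below 0 and without WT replicate 3 23 do; Mcm4 and Ccne2 stay near -0.67 and -0.59, whereas Mki67 lies at -0.24.

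Other cell cycle genes were read from the same fit, 96 in 6 lists, of which 0 passed (edgeR adjusted p = 0.386 to 0.9996). At an edgeR unadjusted p under 0.05, 8 of them (8.33%) were lower and 1 was higher in sST2-KO. The shares over all genes tested were 5.95% lower and 5.08% higher. The 34 other mitotic genes had 27 log2 changes below 0 and a median of -0.50, and the 21 other replication genes had 13 below 0 and a median of -0.24. Without WT replicate 3 these medians were -0.13 and -0.038, and without sST2-KO replicate 3 that of the mitotic genes was -0.28. WT replicate 3 was the highest library for 25 of the 34 mitotic and 10 of the 21 replication genes. Smc2, a condensin subunit that compacts chromosomes, had the lowest p of all 96, with 7.61, 7.52 and 6.39 CPM in sST2-KO and 12.2, 12.6 and 15.5 CPM in WT. The groups did not overlap, and the log2 change was -0.91 (SE 0.24, edgeR adjusted p = 0.386), between -0.97 and -0.79 with any 1 library left out. Spc25, a kinetochore subunit, had 2.61, 2.67 and 1.86 CPM in sST2-KO and 3.47, 5.98 and 6.38 CPM in WT. Pola1, the catalytic subunit of DNA polymerase alpha, had 5.97, 6.18 and 6.92 CPM in sST2-KO and 10.04, 8.77 and 11.7 CPM in WT. Orc1, of the origin recognition complex, had 1.02, 0.841 and 1.06 CPM in sST2-KO and 1.43, 2.31 and 2.80 CPM in WT. These 4 genes were named for the lowest p of their lists. For none of them did the groups overlap, and their log2 changes were -1.16 to -0.68 (edgeR adjusted p = 0.386 to 0.443). Of all 96 genes, 10 (10.4%) were lower in sST2-KO with no overlap, against 10% of all genes tested. Another 2 of the 96 were higher with no overlap, against 9.09% of all genes tested.

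Further lists held genes that keep cells in G1 or release them. WT replicate 3 was the highest library for 0 of the 6 D-type cyclin and G1 kinase genes. It was also the highest for 2 of the 11 CDK inhibitor and p53 genes. Of these 11, 8 (72.7%) were lowest in WT replicate 2, against 28.1% of all genes tested. The D-type cyclins and their kinases had a median log2 change of 0.094 over 6 genes. Ccnd1, cyclin D1, had 38.7, 71.3 and 22.2 CPM in sST2-KO and 44.2, 39.5 and 39.2 CPM in WT (log2 change 0.11, SE 0.39), and its sST2-KO libraries lay on both sides of WT. Cdk6 had 25.4, 29.2 and 23.5 CPM in sST2-KO and 32.04, 38.3 and 32.6 CPM in WT without overlap (log2 change -0.40, SE 0.17, edgeR adjusted p = 0.453). Cdk2, the partner of cyclin E, had a log2 change of 0.17 (SE 0.18). Of 11 genes of the CDK inhibitors and the p53 arm, 10 lay above 0 on the log2 scale, with a median of 0.23 and 0 called (edgeR adjusted p = 0.480 to 0.993). Without WT replicate 2 the median was 0.12, and 4 of the 11 lay below 0.

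Cdkn1a, which encodes the inhibitor p21, had 64.8, 49.8 and 91.8 CPM in sST2-KO and 61.3, 48.3 and 57.4 CPM in WT (log2 change 0.30, SE 0.25). Cdkn2a, a locus of growth arrest and senescence, had 1.42, 1.09 and 1.20 CPM in sST2-KO and 0.496, 0.00 and 0.477 CPM in WT. Its groups did not overlap but it rested on at most 25 counts in a library (log2 change 1.85, SE 0.88, edgeR adjusted p = 0.480). Cdkn1b, the inhibitor p27, had a log2 change of -0.28 (SE 0.18).

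Among pocket proteins, E2F factors and MuvB subunits, 12 of 16 log2 changes lay below 0, and the median was -0.16. E2f8, a repressive E2F factor, had 1.14, 1.19 and 0.665 CPM in sST2-KO and 2.04, 1.75 and 7.33 CPM in WT, with WT replicate 3 far above the others (log2 change -1.89, SE 0.67, edgeR adjusted p = 0.435), and without that library the log2 change was -0.92. Lin9, a MuvB subunit, had 4.49, 5.10 and 5.52 CPM in sST2-KO and 7.22, 7.41 and 7.75 CPM in WT, again without overlap (log2 change -0.57, SE 0.26). In the list of CDC25 phosphatases, WEE1-type and checkpoint kinases the median was -0.17 over 8 genes. Chek1, a kinase that halts the cycle at damaged DNA, had 1.48, 1.48 and 1.26 CPM in sST2-KO and 2.59, 1.99 and 3.88 CPM in WT (log2 change -1.0, SE 0.41, edgeR adjusted p = 0.452). Cdc25c had a log2 change of -1.26 (SE 0.75) at 0.247 to 2.33 CPM.

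**Figure D4:**
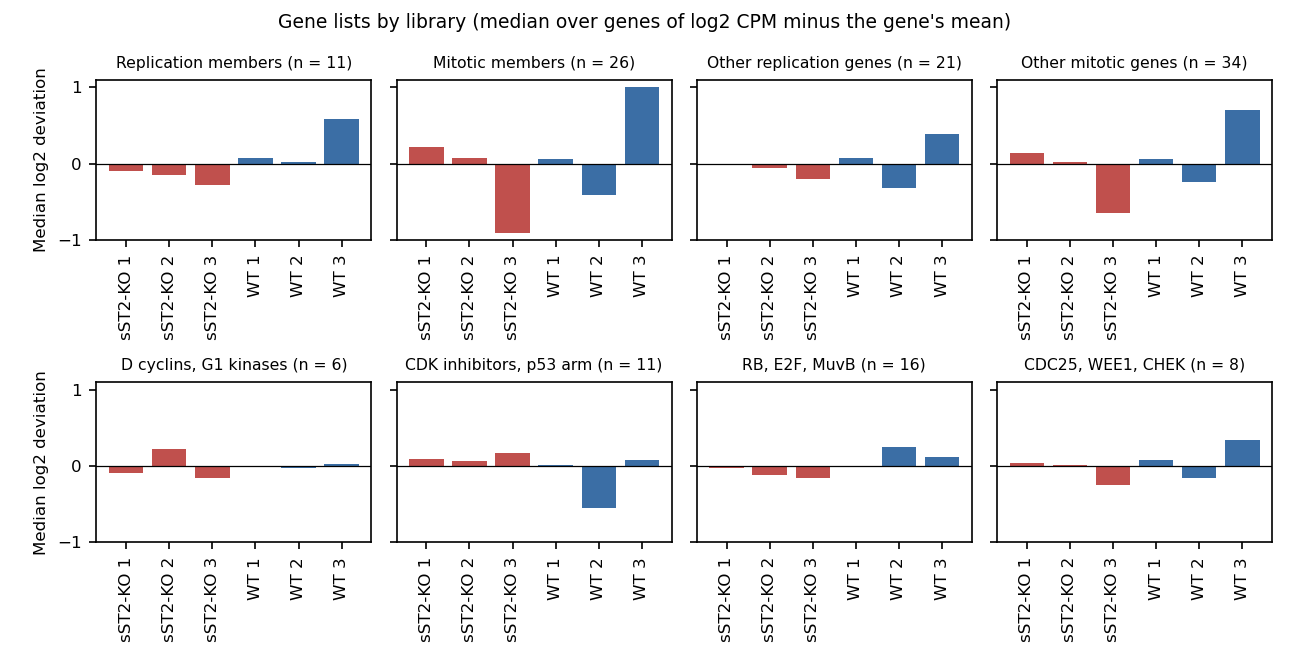
Bars give, for each library (sST2-KO red, left; WT blue, right), the list's median log2 CPM deviation from each gene's own mean; the 8 panels are the replication and mitotic members and the 6 lists of other cell cycle genes. Mitotic members lie at -0.91 in sST2-KO replicate 3 and at 1.0 in WT replicate 3, whereas D-type cyclins with their kinases stay between -0.16 and 0.22.

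Markers of cell types moved with the libraries and with the groups. Where mitotic members were lowest, in sST2-KO replicate 3 and WT replicate 2, the 6 smooth muscle markers summed to 10552 and 9510 CPM, against 5078 and 5876 CPM in the other sST2-KO libraries and 3082 and 4519 CPM in the other WT libraries. WT replicate 3, where they were highest, held the hepatocyte markers. The summed erythroid markers did not single it out, with 1174, 60.3 and 640 CPM in sST2-KO replicates 1 to 3 and 4763, 744 and 4548 CPM in WT replicates 1 to 3. The 8 macrophage markers, 6 of them without overlap, summed to 627 to 1009 CPM in sST2-KO and 1232 to 1525 CPM in WT. The 6 fibroblast markers, 4 of them without overlap, summed to 3137 to 4806 CPM in sST2-KO and 6772 to 8718 CPM in WT. In both lists the markers without overlap were lower in sST2-KO, as were 10% of all genes tested. B cell markers summed to 6.88 to 16.6 CPM in sST2-KO and 12.8 to 19.8 CPM in WT, and T cell markers to 8.32 to 25.2 CPM in sST2-KO and 11.6 to 15.1 CPM in WT. Brown fat markers summed to 1072, 79.3 and 1992 CPM in sST2-KO replicates 1 to 3 and 227, 11.1 and 157 CPM in WT replicates 1 to 3. Mitochondrially encoded RNA summed to 230790, 58897 and 200750 CPM in sST2-KO replicates 1 to 3 and 161760, 463560 and 177370 CPM in WT replicates 1 to 3, highest in WT replicate 2. The part of mitochondrial RNA or of any of these cell types in the member genes' levels was not tested.

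Per kilobase of the gene length in the deposited table, the members spanned a wide range of mean level over all 6 libraries. Pcna at 19.2 and Mcm6 at 11.6 CPM per kb were the highest, followed by Mcm4, Mcm7 and Mcm3 at 5.84, 5.49 and 4.68 CPM per kb. All 5 are replication genes. The highest mitotic member was Plk1 at 3.89 CPM per kb, of which sST2-KO replicate 2 gave most, and then Ccnb2 at 3.07 CPM per kb. Cenpe, Ttk and Cenpf were the lowest at 0.291, 0.240 and 0.217 CPM per kb.

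To show the regulatory sequence of the mitotic and the replication members, the promoter windows of both were read from RefSeq (build GRCm38.p6, 250 bases before to 50 bases after a start site). A window was found for 33 of the 40 members; Aurkb, Ccna2, Ccne2, Foxm1, Kif20a, Mcm4 and Tpx2 are not among them. The letters searched, on both strands, were TTTGAA or TTTAAA for the CHR element bound by MuvB complexes, CCAAT for the NF-Y box, and TTTCGCGC, TTTGGCGC or TTTCCCGC for an E2F site. Shown are Mki67 and Top2a, with their peak in WT replicate 3, Plk1 with its peak in sST2-KO replicate 2, Cdk1, the mitotic member that holds all 3 motifs, and Mcm3 and Mcm5, whose groups did not overlap. Capitals mark these motifs, and in Mcm5 a pair of E2F matches on opposite strands overlap.

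Mki67 (chr7:135716330-135716629, strand -): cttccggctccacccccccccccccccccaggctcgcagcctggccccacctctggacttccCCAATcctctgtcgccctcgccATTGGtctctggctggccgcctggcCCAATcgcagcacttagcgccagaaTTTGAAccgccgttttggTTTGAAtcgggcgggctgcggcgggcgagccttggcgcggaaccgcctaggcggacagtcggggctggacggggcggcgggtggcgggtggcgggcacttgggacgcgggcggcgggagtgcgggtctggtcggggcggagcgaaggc
Top2a (chr11:99024140-99024439, strand -): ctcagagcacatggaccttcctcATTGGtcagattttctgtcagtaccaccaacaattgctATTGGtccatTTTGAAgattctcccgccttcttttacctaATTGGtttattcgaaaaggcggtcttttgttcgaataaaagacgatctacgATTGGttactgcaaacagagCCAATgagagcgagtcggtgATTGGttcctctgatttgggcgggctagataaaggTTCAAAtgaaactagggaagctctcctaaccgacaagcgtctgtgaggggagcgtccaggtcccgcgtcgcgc
Plk1 (chr7:122159185-122159484, strand +): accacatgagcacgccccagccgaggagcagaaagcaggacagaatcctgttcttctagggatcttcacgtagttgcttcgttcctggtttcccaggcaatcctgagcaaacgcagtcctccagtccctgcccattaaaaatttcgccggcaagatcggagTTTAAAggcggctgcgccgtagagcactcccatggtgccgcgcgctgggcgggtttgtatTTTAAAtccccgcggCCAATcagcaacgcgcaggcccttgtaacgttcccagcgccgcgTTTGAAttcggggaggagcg
Cdk1 (chr10:69352863-69353162, strand -): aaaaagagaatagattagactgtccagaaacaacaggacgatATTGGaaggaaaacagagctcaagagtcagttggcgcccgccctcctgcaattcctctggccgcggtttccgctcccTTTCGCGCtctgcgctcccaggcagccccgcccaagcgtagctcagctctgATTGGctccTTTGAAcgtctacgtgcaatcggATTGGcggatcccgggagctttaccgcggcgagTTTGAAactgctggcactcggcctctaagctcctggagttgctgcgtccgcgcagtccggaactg
Mcm3 (chr1:20820263-20820562, strand -): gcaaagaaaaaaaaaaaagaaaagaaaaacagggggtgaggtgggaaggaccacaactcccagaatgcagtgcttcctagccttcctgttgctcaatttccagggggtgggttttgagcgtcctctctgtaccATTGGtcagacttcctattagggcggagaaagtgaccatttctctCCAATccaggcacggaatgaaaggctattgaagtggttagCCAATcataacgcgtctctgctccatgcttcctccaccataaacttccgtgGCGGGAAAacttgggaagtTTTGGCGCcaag
Mcm5 (chr8:75109259-75109558, strand +): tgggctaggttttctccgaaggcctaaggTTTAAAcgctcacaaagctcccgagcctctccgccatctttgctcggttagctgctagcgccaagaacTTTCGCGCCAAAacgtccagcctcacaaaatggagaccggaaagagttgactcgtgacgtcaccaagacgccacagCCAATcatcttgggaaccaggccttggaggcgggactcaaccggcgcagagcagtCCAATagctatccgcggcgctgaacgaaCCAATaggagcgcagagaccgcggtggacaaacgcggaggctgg

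Mki67 and Top2a hold 2 CHR matches each and several CCAAT boxes in these windows, Plk1 holds 3 CHR matches and 1 CCAAT box, and Mcm3 holds 3 CCAAT boxes, 2 E2F matches and no CHR match. Mcm5, like Cdk1, holds all 3 motifs, with 1 CHR match, 3 CCAAT boxes and 2 E2F matches. A CHR match was present in 19 of 21 mitotic members with a window (90.5%) and in 3 of 10 replication members (30%), where it was present in 30.6% of 27025 genes with a window. A CHR match together with a CCAAT box was present in 18 mitotic members (85.7%) and 3 replication members (30%), against 12.2% of all genes. E2F matches were found in 5 of 10 replication members (50%) and in 1 of 21 mitotic members (4.76%), Cdk1, against 2.12% of all genes. Of the replication members with windows, 8 held a CCAAT box (80%), against 41.1% of all genes, as did 19 mitotic members (90.5%). These are matches of letters in a window, and binding was not measured here.

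**Figure D5:**
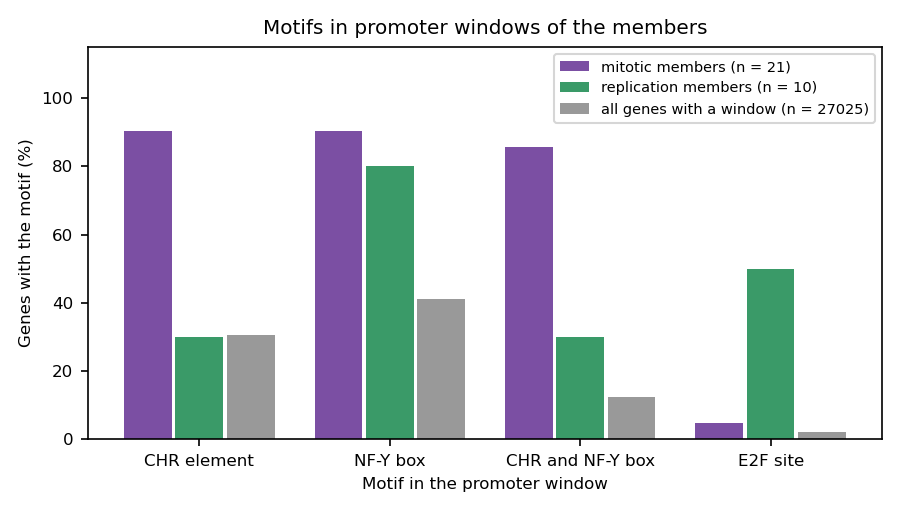
Share of genes (vertical axis, percent) whose RefSeq promoter window holds a CHR element, an NF-Y box, both, or an E2F site, for 21 mitotic members (purple), 10 replication members (green) and all 27025 genes with a window (grey). The CHR element is at 90.5% in mitotic members and 30% in replication members, and the E2F site at 4.76% and 50%.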

How the data were processed

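The table the authors deposited holds unnormalized counts of reads for each Ensembl gene in 6 libraries, per the file headers, and libraries were matched to samples by their label. Total RNA was extracted, poly-T selected and primed with random hexamers, per the labels' protocols. Genome build mm39 is named per the submitters' processing notes; the aligner, counter, strand setting and annotation were not given in the sources used here, so reads of overlapping genes cannot be told apart. Nothing says whether replicates differ beyond being separate samples of littermates. The p-values therefore set the difference between the groups against the spread between these samples.

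The test was edgeR 4.0.16 (R 4.3.3) with filterByExpr (minimum count 10, minimum total 15), TMM scaling, glmQLFit and glmQLFTest of sST2-KO over WT, Benjamini-Hochberg adjustment over all 16377 tested genes, threshold 0.05. SE is the size of the log2 change divided by the square root of F. Medians by library used log2 CPM with prior count 2. limma 3.58.1 and DESeq2 1.42.0 gave alternatives. Motif searches used Python 3.11.15, and plots matplotlib 3.10.9. The fit was tested on simulated counts.

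Members and gene lists were chosen with earlier results of these data known, and the split into mitotic and replication members was made after seeing the data. The rule for named genes took Mki67, Top2a, Ccnd1 and Cdkn1a, the 2 members of lowest p and the member of highest level per kilobase in each role, and the 2 genes of lowest p in each other list; further members are named to account for all 40, with their values seen. Alternatives were other scalings, tools, filters, gene sets, a threshold of 0.1, a replicate block and libraries left out. Replicates were compared first: any 2 of the libraries differed by 6.55 to 83.7 times counting noise (median squared difference, genes with 50 or more counts), so none was taken as a duplicate. Floors cover counting error only.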

Additional observations from a re-analysis of the deposited data

How the results depend on the processing

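Members called in either direction remained 0 under every alternative run, and so did the other cell cycle genes called. Among all genes, DESeq2 called 59 higher and 172 lower in sST2-KO and limma-voom with quality weights 8 and 35, against 0 and 0 in edgeR, where the counts of lower genes were 0 to 1 with 1 library left out. The median over members was -0.74 to -0.15 with 1 library left out and -0.22 without WT replicate 3 and sST2-KO replicate 2 together. Over mitotic members it was -0.83 to 0.042 with 1 library left out, and over replication members -0.71 to -0.29. Of 521 values of the 31 genes of the naming rule, 502 kept their direction and 19 reversed, in 7 genes, and 0 passed the threshold. With 1 library left out the log2 changes were -0.89 to 0.042 for Ccnb2, -0.43 to 0.42 for Ccnd1, -0.42 to 0.53 for Cdc20, -0.73 to 0.11 for Cdca3, -0.12 to 0.42 for Foxm1, -0.17 to 2.44 for Plk1, -1.32 to 0.24 for Ube2c and -0.86 to 3.17 for Nek2. Without WT replicate 3 and sST2-KO replicate 2 together they were -0.46 for Ccnd1, 0.34 for Cdc20, 0.18 for Ube2c and -0.42 for Nek2. limma-voom gave -0.038 for Ccnd1 and 0.00079 for Cdc20, and with quality weights -0.18 for Ccnd1, -0.036 for Foxm1 and -0.52 for Nek2. The cause was not tested.

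The labels do not say that a replicate number marks a shared litter or batch, and deviations of same-numbered libraries correlated at 0.15, 0.046 and -0.087 for numbers 1 to 3, so the numbers were not taken as pairs. With a replicate block 0 members and 0 genes were called, the median over members was -0.47, and Ccnd1 and Cdc20 reversed to -0.054 and 0.042.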
